A study of Homo sapiens with 8 samples.

Results

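Interferon-stimulated genes are the genes that cells switch on when an interferon, a secreted alarm protein, binds its receptor. Their products detect and break down viral RNA, block viral entry and tag proteins with the small modifier ISG15. The 46 members described here were chosen by name as genes known to respond to interferons, with earlier results of these data known. Counts and medians of members set beside all genes are therefore descriptions and not tests of the list. All 46 were found among the 25369 gene symbols measured. Of these, 43 had at least 10 normalized counts in 2 or more of the 8 libraries and were tested together with the 13369 genes that passed this filter. The other 3, MX2, XAF1 and EPSTI1, are given by their values only. Of the 43 members, 40 reached 10 normalized counts in all 4 gels, 2 in 3 gels and 1 in 2 gels, so no member passed through a single gel.

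RNA was sequenced from MCF10A cells, a spontaneously immortalized and non-transformed human mammary epithelial line, grown inside 4 kinds of hydrogel with 2 libraries per gel. The gels were made to separate the response to a stiffer matrix from the response to type 1 collagen (col-1). Cells had been inside the gels for 7 days, and no interferon or virus was named as a treatment of any of these groups. Soft IPN was an interpenetrating network of alginate with reconstituted basement membrane (rBM), and stiff IPN was the same network made stiffer by crosslinking its alginate with calcium. Soft col:rBM was a soft gel of col-1 mixed with rBM, and stiff col was a stiffer gel of col-1 without rBM. Stiff and soft IPNs therefore differed in calcium as well as stiffness, and the collagen gels differed in col-1 and rBM as well as stiffness. Stiff col gels and stiff IPNs differed in col-1, rBM, alginate and added calcium together, soft col:rBM gels and soft IPNs at least in col-1 and alginate, and all groups were cultures of a single cell line.

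As background, type I and type III interferons act through the kinases JAK1 and TYK2 to activate a complex that contains STAT2 and IRF9 and binds interferon-stimulated response elements near target genes. Interferon gamma acts mainly through gamma-activated sites. Epithelial cells express many of these genes at a low level without added interferon, through low-level signalling and factors such as IRF1.

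The deposited values are normalized counts, meaning read counts already divided by a factor for each library and rounded. Totals per library were 17942530 and 17999273 normalized counts in the soft IPNs, 15522001 and 14306848 in the stiff IPNs, 17856809 and 15588237 in soft col:rBM gels and 17338109 and 14940825 in stiff col gels, replicate 1 first in each pair here and throughout. From the spacing of the values, a single counted read was worth 0.804 to 1.24 normalized counts, which gives about 13100000 to 18600000 counted reads per library. This is an estimate of what HTSeq counted, where a pair of ends counts once, and the depth the study states for its paired-end reads may be in another unit. Stiff IPN replicate 2 was the shallowest. Under counting error alone, a value of 0 allows up to 3 reads, or 2.4 to 3.7 normalized counts depending on the library. The 2 replicates of each gel stood apart in the same way across gels: the first principal component held 47.4% of the variance and separated replicate 1 from replicate 2 within each gel. Differences between replicates correlated across genes between every pair of gels, with coefficients from 0.278 to 0.819 over the 6 pairs of gels. They were lowest for the pairs with stiff IPN: 0.278 with soft IPN, 0.393 with soft col:rBM and 0.398 with stiff col, so pairing was weakest in the comparisons where the block gives calls. The replicate numbers therefore paired the libraries, and each test is given with and without the replicate number as a block.

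Members summed to 16945 and 18585 normalized counts in the soft IPNs, 19747 and 23863 in the stiff IPNs, 13553 and 14014 in soft col:rBM gels and 15216 and 14758 in stiff col gels. By these sums both stiff IPN libraries were the highest, and the 4 collagen libraries the lowest. As a share of each library the same sums made 0.0944% and 0.103%, 0.127% and 0.167%, 0.0759% and 0.0899%, and 0.0878% and 0.0988%, in the same order of gels. By share stiff IPNs were again the highest, but stiff col replicate 2 lay above soft IPN replicate 1. Per kilobase of exon, LGALS3BP (888 normalized counts per kb, mean of all libraries), IFITM3 (824) and IFITM2 (725) had the highest levels among members, and MX1 (1.33) the lowest among those tested. Without these 3 highest members the sums were 9582 and 8829 in the soft IPNs, 12597 and 16987 in the stiff IPNs, 8742 and 8768 in soft col:rBM gels and 9678 and 9135 in stiff col gels, so that stiff IPNs stood above every other gel. Soft IPN and stiff col libraries overlapped in these sums. Whether more cells expressed these genes or each cell held more of their RNA cannot be told apart in bulk RNA.

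**Figure D1:**
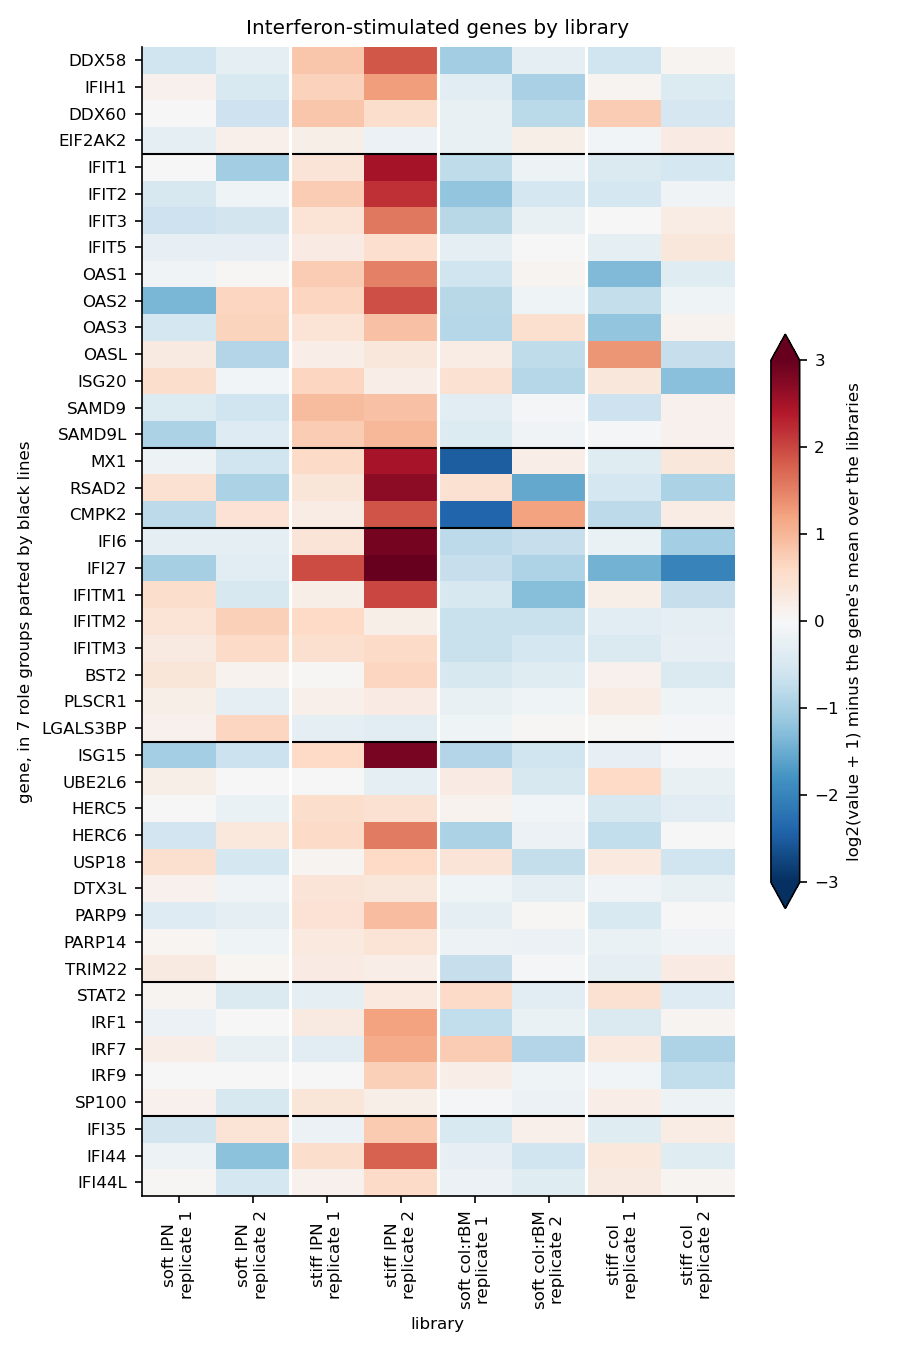
Each cell is log2(normalized count + 1) of a member in a library minus that gene's mean over the 8 libraries, for the 43 members tested, with genes in 7 role groups parted by black lines and libraries in columns. The column of stiff IPN replicate 2 holds the highest value of 29 of the 43 members, and stiff IPN replicate 1 that of 6.

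The libraries of stiff IPN were not alike. Replicate 2 held the highest value of all 8 libraries for 29 of 43 members (67.4%), against 23.0% of all genes tested, and replicate 1 for 6 members (14.0%, against 7.04%). The difference between them, replicate 2 minus replicate 1 on the scale of log2(normalized count + 1), had a median of 0.55 over the members and -0.01 over all genes. It was above 1 for 14 members and below -1 for 0, while 5.1% of all genes were above 1. Counts of calls and changes of several named members are therefore also given below without replicate 2.

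Promoters of 4 members that stood highest in stiff IPNs are shown here with matches to the motifs searched. RefSeq promoter windows, 250 bases before to 50 after a gene start in build GRCh38.p14, were matched for 38 of the 46 members (51 windows, since some genes have several starts). Both strands were searched for the core of the interferon-stimulated response element, GAAANNGAA, and for the gamma-activated site, TTCNNNGAA, and matches on either strand are in capitals. Matches of both motifs overlapped in 5 members, IFI27 included. Windows are given 5′ to 3′ on the strand of the gene: IFI27 at chr14:94110486-94110785 (plus strand), ISG15 at chr1:1013247-1013546 (plus), IFIT3 at chr10:89327747-89328046 (plus) and OAS1 at chr12:112906712-112907011 (plus).
IFI27: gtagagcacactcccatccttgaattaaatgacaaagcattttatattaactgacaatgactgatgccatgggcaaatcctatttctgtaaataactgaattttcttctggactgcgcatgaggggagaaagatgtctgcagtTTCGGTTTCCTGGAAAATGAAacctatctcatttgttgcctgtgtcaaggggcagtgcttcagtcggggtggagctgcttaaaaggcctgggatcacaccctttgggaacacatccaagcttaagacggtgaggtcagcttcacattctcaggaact
ISG15: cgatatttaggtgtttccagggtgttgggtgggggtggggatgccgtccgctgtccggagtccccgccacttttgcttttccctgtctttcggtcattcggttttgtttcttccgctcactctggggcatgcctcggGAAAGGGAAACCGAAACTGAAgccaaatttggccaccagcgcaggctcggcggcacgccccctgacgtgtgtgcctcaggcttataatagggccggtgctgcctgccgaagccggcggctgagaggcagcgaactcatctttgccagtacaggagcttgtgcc
IFIT3: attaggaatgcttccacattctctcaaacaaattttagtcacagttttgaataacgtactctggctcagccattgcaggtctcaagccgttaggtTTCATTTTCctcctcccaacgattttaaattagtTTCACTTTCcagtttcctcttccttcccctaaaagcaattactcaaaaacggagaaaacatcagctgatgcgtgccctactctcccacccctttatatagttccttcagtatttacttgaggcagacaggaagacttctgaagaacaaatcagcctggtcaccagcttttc
OAS1: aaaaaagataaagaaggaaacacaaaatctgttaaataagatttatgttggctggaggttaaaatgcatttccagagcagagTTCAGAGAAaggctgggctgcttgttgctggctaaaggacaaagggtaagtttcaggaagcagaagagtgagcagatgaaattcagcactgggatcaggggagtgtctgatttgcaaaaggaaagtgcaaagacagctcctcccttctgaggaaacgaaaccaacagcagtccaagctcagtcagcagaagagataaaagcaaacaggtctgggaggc

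In these windows, matches to the response element core began 107 and 95 bases before the start of IFI27, with a gamma-activated site match between them at 101 bases. ISG15 held 3 overlapping matches to the core, at 113, 107 and 101 bases before its start, and IFIT3 held 2, at 155 and 121. The window of OAS1 held no match to the core and a single gamma-activated site match 168 bases before the start, which says only that these letters are not in this window. The search fixed the spacing within the core, so letters with another spacing, such as gaaacgaaa in the OAS1 window, were left unmarked. Over all members with a window, 27 of 38 (71.1%) held the core in at least 1 window, and 15 held 2 or more matches in the same window. Among all 27305 genes with windows the share was 9.86%, and among all 35116 windows 8.11%. The gamma-activated site was found for 12 of 38 members (31.6%), against 9.38% of all genes and 7.66% of all windows. No window was matched for IFIT2, IFITM2, IRF7, MX2, OAS2, OASL, TRIM22 and USP18. A match is a description of letters and does not show that a factor was bound.

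**Figure D2:**
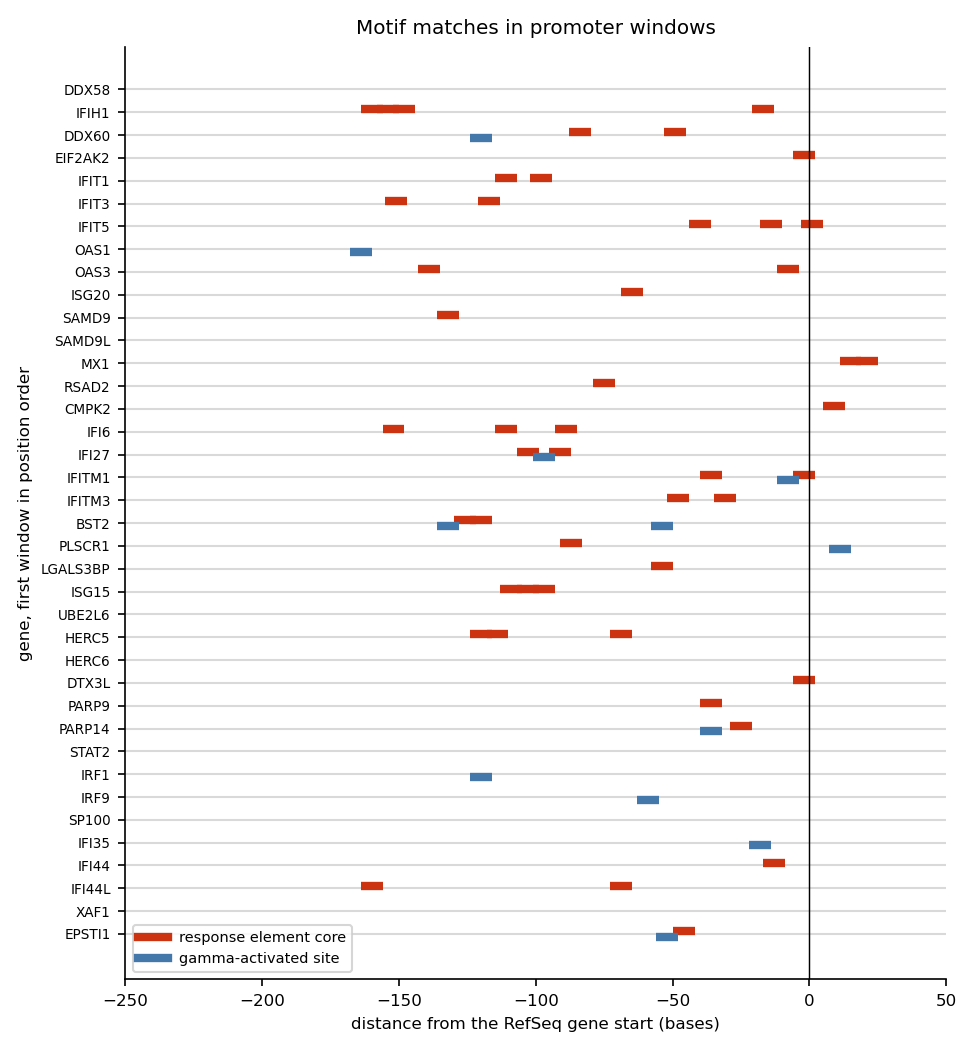
Positions of matches to the response element core (red) and the gamma-activated site (blue) in the first promoter window of each of the 38 members, on the axis of distance from the RefSeq gene start in bases. Red marks lie mostly upstream of the start, as in ISG15 at 113 to 101 bases and IFI27 at 107 and 95 bases before it.

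Sensors of foreign RNA formed the first role group. DDX58 encodes RIG-I, the helicase that recognizes RNA with an uncapped end, and lies at chr9:32455300-32526206 of hg19 (minus strand). Its level was 90 and 113 normalized counts in the soft IPNs, 245 and 497 in the stiff IPNs, 66 and 110 in soft col:rBM gels and 90 and 144 in stiff col gels. Both stiff IPN libraries were above the other 6, and the remaining gels overlapped. An unnamed annotation on the same strand shares 43.2% of the exon bases of DDX58, so how its reads were assigned is uncertain. IFIH1, the sensor MDA5 of long double-stranded RNA, had 133 and 88 normalized counts in the soft IPNs, 194 and 287 in the stiff IPNs, 97 and 61 in soft col:rBM gels and 127 and 91 in stiff col gels. Again the 2 stiff IPN libraries were the highest. DDX60, a helicase related to these sensors, had 227 and 146, 401 and 325, 191 and 127, and 379 and 158 in the same order of gels. Stiff col replicate 1 lay among the stiff IPN values here, so these gels overlapped for DDX60. EIF2AK2, the kinase PKR that halts translation when it binds double-stranded RNA, lay between 362 and 516 normalized counts with all gels overlapping stiff IPNs, and had the highest level of the group per kilobase (39.9 per kb).

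IFIT proteins bind viral RNA, and OAS enzymes make the short adenylate chains that activate RNase L. IFIT2 had 25 and 32 normalized counts in the soft IPNs, 61 and 166 in the stiff IPNs, 15 and 24 in soft col:rBM gels and 24 and 33 in stiff col gels. For IFIT3, whose promoter is shown above, the values were 66 and 69 in the soft IPNs, 136 and 304 in the stiff IPNs, 57 and 87 in soft col:rBM gels and 102 and 118 in stiff col gels. Both genes had their 2 highest libraries in stiff IPNs, and IFIT3 was also higher in both stiff col than in both soft col:rBM libraries. IFIT1 was carried by a single library, with 38 and 18 in the soft IPNs, 50 and 219 in the stiff IPNs, 22 and 34 in soft col:rBM gels and 28 and 26 in stiff col gels. Stiff IPN replicate 1, at 50, stood little above soft IPN replicate 1, at 38. IFIT5 was between 260 and 454, with both stiff IPN libraries above both soft IPN libraries and stiff col replicate 2, at 403, between the stiff IPN values.

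OAS1 had 119 and 131 normalized counts in the soft IPNs, 217 and 370 in the stiff IPNs, 84 and 135 in soft col:rBM gels and 51 and 100 in stiff col gels. Stiff IPNs were above all other libraries, and the lowest value was that of stiff col replicate 1. OAS3 was read at a higher level and split by replicate: 451 and 1043 in the soft IPNs, 874 and 1207 in the stiff IPNs, 358 and 909 in soft col:rBM gels and 288 and 706 in stiff col gels. Replicate 2 was above replicate 1 in all 4 gels, so that soft and stiff IPNs overlapped until replicates were compared within pairs. OAS2 ranged from 8 to 87 and OASL from 52 to 242, the latter with its highest value in stiff col replicate 1. The 3 OAS genes neighbour each other on chromosome 12, and ISG20, a nuclease of single-stranded RNA, ranged from 54 to 206.

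SAMD9 and its paralog SAMD9L, which restrict poxviruses and limit cell growth, are neighbours on chromosome 7. SAMD9 had 465 and 413 normalized counts in the soft IPNs, 1212 and 1145 in the stiff IPNs, 502 and 612 in soft col:rBM gels and 404 and 685 in stiff col gels. SAMD9L had 36 and 54, 120 and 143, 53 and 66, and 68 and 78 in the same order. In both genes the stiff IPN replicates were close to each other and above all other libraries, unlike IFIT1, IFIT2 and IFIT3, whose replicate 2 was far above replicate 1. SAMD9 also had the highest level of its role group per kilobase, at 99.2 per kb.

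MX1, a GTPase that traps viral nucleocapsids, had 14 and 10 normalized counts in the soft IPNs, 24 and 92 in the stiff IPNs, 2 and 18 in soft col:rBM gels and 12 and 20 in stiff col gels. RSAD2 (viperin), which makes a chain-terminating nucleotide, had 15 and 5, 14 and 73, 15 and 3, and 7 and 5. CMPK2, its neighbour on chromosome 2 and a nucleotide kinase, had 2 and 6, 5 and 18, 0 and 11, and 2 and 5. All 3 genes were highest in stiff IPN replicate 2, while stiff IPN replicate 1 was within or just above the range of the other gels. RSAD2 and CMPK2 overlap on opposite strands over 6.2% and 8.0% of their exon bases, and since the strand setting of the counting was not stated their reads are uncertain there. MX2 lay between 0 and 3, at or under the floor of 3 reads in all libraries, and no fold is given for it.

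Small and membrane proteins included IFI27, the member with the largest changes. IFI27, a small mitochondrial and nuclear-envelope protein often used as a marker of interferon exposure, lies at chr14:94571182-94583032 of hg19 (plus strand). It had 15 and 25 normalized counts in the soft IPNs, 123 and 671 in the stiff IPNs, 19 and 16 in soft col:rBM gels and 11 and 7 in stiff col gels. The lower stiff IPN library was far above the highest library of any other gel, and stiff col gels were the lowest. IFI6, a related protein, had 78 and 79 in the soft IPNs, 125 and 700 in the stiff IPNs, 55 and 58 in soft col:rBM gels and 82 and 46 in stiff col gels. IFITM1, which holds back viral fusion at the cell surface, had 13 and 6, 10 and 38, 6 and 3, and 10 and 5. IFI6 was above all other gels in both stiff IPN libraries, though modestly in replicate 1, while IFITM1 overlapped in replicate 1.

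IFITM3, which blocks fusion of viruses in endosomes, had 2654 and 3304 normalized counts in the soft IPNs, 3069 and 3280 in the stiff IPNs, 1386 and 1537 in soft col:rBM gels and 1632 and 1879 in stiff col gels. IFITM2 had 1451 and 1806, 1657 and 1244, 688 and 685, and 882 and 905 in the same order. These genes followed the gel system and not stiffness within IPNs: all 4 IPN libraries were above all 4 collagen libraries, and soft and stiff IPNs overlapped. IFITM1, IFITM2 and IFITM3 are near-identical paralogs in one cluster, and reads that map to several of them were removed before counting, so their split is uncertain. LGALS3BP, a secreted glycoprotein that binds galectin 3, ran the other way in IPNs, with 3258 and 4646 in the soft IPNs, 2424 and 2352 in the stiff IPNs, 2737 and 3024 in soft col:rBM gels and 3024 and 2839 in stiff col gels. Its lowest values were those of stiff IPNs. BST2 (tetherin) ranged from 98 to 216, and PLSCR1, a phospholipid scramblase, from 308 to 450, each with stiff IPNs overlapping other gels.

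ISG15 encodes the ubiquitin-like modifier, HERC5 the main ligase that attaches it, UBE2L6 the carrier enzyme and USP18 the protease that removes it. ISG15 lies at chr1:936518-949920 of hg19 (plus strand) and had 34 and 45 normalized counts in the soft IPNs, 108 and 511 in the stiff IPNs, 38 and 46 in soft col:rBM gels and 59 and 68 in stiff col gels. Stiff IPNs were the highest, and stiff col gels were above soft col:rBM gels. HERC6, a relative of HERC5, had 71 and 133, 159 and 315, 55 and 94, and 64 and 108, with replicate 2 above replicate 1 in all gels. PARP9, an ADP-ribosylation factor that works with DTX3L, had 200 and 213, 354 and 496, 215 and 268, and 190 and 260, so both stiff IPN libraries were above the other 6. Of the enzymes of ISG15 attachment and removal, UBE2L6 was barely lower in stiff IPNs (441 and 365) than in soft IPNs (503 and 442). Its nearest values, 441 and 442, were almost equal. USP18 overlapped between these gels (83 and 119 against 109 and 54). HERC5 was read near the filter value in all gels, between 9 and 19 normalized counts, with its highest values, 19 and 18, in stiff IPNs as for ISG15. DTX3L ranged from 608 to 984, PARP14 from 705 to 1081 and TRIM22 from 334 to 649, and the stiff IPN libraries of DTX3L and PARP14 were above those of the other gels.

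Transcription factors of the pathway formed a further group. IRF1, which drives many of these genes without interferon, had 183 and 204 normalized counts in the soft IPNs, 247 and 479 in the stiff IPNs, 124 and 180 in soft col:rBM gels and 152 and 217 in stiff col gels. IRF9, a DNA-binding partner of STAT2, had 260 and 263, 263 and 434, 301 and 241, and 249 and 157. IRF7, the amplifier of type I interferon transcription, had 91 and 67, 62 and 172, 134 and 42, and 96 and 41. IRF1 was highest in both stiff IPN libraries, whereas IRF9 and IRF7 had their highest value in stiff IPN replicate 2, and IRF7 its next in soft col:rBM replicate 1. STAT2 ranged from 539 to 1074 with its highest value in soft col:rBM replicate 1, and SP100, a nuclear body protein, from 767 to 1383. Other annotations share 22.9% of the exon bases of IRF1 (antisense) and, on the same strand, 23.9% of those of IRF9, 23.1% of IFI6, 21.1% of IFITM1 and 12.1% of IFIT2, so the reads of these genes are uncertain too.

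Of the 5 less understood members, IFI44 had 147 and 69 normalized counts in the soft IPNs, 236 and 561 in the stiff IPNs, 137 and 107 in soft col:rBM gels and 205 and 126 in stiff col gels. IFI44L, its paralog, had 305 and 207, 325 and 442, 266 and 231, and 360 and 317. IFI35 had 77 and 151, 101 and 197, 83 and 127, and 88 and 134. IFI44 was highest in stiff IPNs, IFI44L overlapped between stiff IPNs and stiff col gels, and IFI35 split by replicate in every gel. XAF1 lay between 0 and 14 and reached 10 in stiff IPN replicate 2 alone, and EPSTI1 lay between 1 and 3, so neither was tested.

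**Figure D3:**
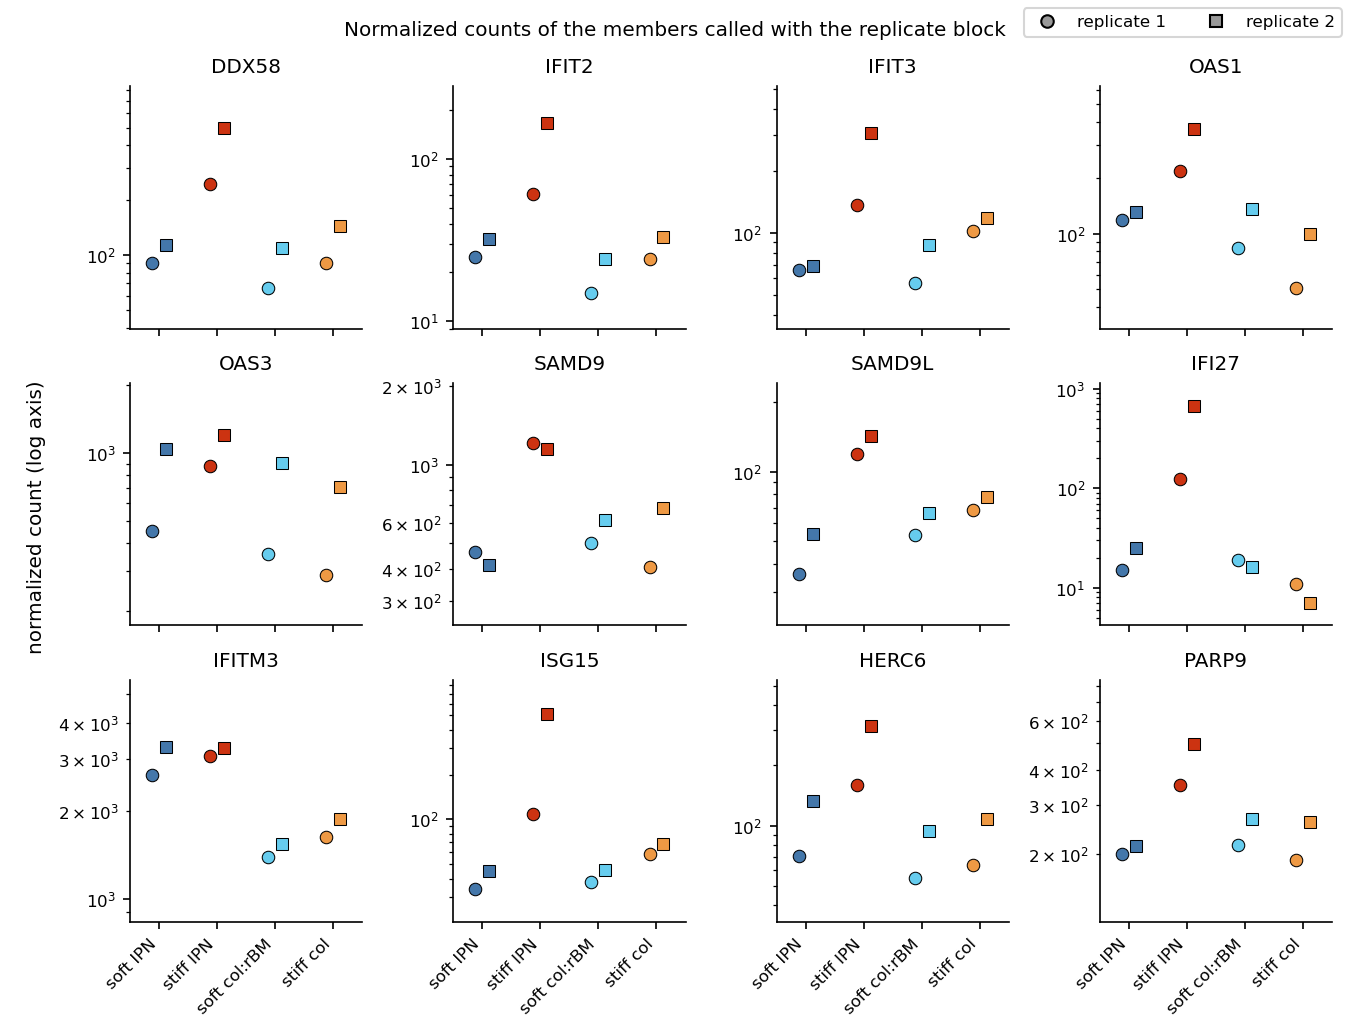
Normalized counts (log axis) of the 12 members called in stiff IPN against soft IPN or in stiff col against stiff IPN with the replicate block, by gel, with circles for replicate 1 and squares for replicate 2. In DDX58, IFIT2, IFIT3, OAS1, SAMD9, SAMD9L, IFI27, ISG15, HERC6 and PARP9 both stiff IPN points lie above all other points, while OAS3 splits by replicate and IFITM3 by gel system.

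Stiff IPN against soft IPN asks what stiffness does with col-1 absent. Members stood higher in stiff IPNs: the median log2 change was 0.63 over the 43 members and -0.01 over all genes tested, and 40 members had a positive change. The members' median was 0.43 in replicate 1 alone and 1.21 in replicate 2 alone. When stiff IPN replicate 2 was left out of the fit with the block, 32 members had a positive change and 11 a negative one. There IRF7 was at -0.88, STAT2 at -0.47, USP18 at -0.39, BST2 at -0.32 and IFITM1 at -0.29, all 5 positive with all libraries. Both stiff IPN libraries were above both soft IPN libraries for 23 of 43 members, and below them for 2, LGALS3BP and, barely (441 against 442), UBE2L6. Over all 13369 genes the same held for 20.5% and 21.4%. With 1 mean per gel, limma called 0 of 43 members and 0% of all genes at an adjusted p under 0.05. At an unadjusted p under 0.05 there were 15 members, 14 higher and 1 lower, and 9.31% of all genes. The study used another method, DESeq2, and did call genes in this comparison. It lists SAMD9 and IFI6 as raised in stiff IPNs. The 0% above thus belongs to this fit and is not the study's own result.

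With the replicate block, 10 of 43 members were called, all 10 higher in stiff IPNs, where 3.82% of all genes were called (1.69% higher and 2.13% lower). These were IFI27, ISG15, IFIT2, DDX58, IFIT3, SAMD9L, SAMD9, HERC6, OAS1 and PARP9, each higher in both replicate pairs. IFI27 rose by 3.82 ± 0.66 (SE) on the log2 scale, or 14.2-fold, with an adjusted p of 0.0317 (0.410 without the block). ISG15 rose by 2.56 ± 0.49, or 5.89-fold, with an adjusted p of 0.0373 (0.491 without the block). DDX58 rose 3.44-fold (adjusted p = 0.0182), IFIT2 3.47-fold (0.0409), IFIT3 2.98-fold (0.0376), SAMD9L 2.93-fold (0.0299), SAMD9 2.68-fold (0.0282), HERC6 2.29-fold (0.0363), OAS1 2.26-fold (0.0479) and PARP9 2.03-fold (0.0338). Over the 17 settings without the block, adjusted p-values of the members followed there lay between 0.13 and 1.0. SAMD9, IFITM2 and IFITM3 were not followed in any gel comparison, nor were HERC6 and OAS1 in this one or PARP9 in stiff col against stiff IPN. Folds are on normalized counts with 1 added, which understates them where levels are low. Among the members that did not pass either test, IFIT1 had a log2 change of 1.96, MX1 of 1.91, IFI6 of 1.90, IFI44 of 1.84, RSAD2 of 1.77 and OAS2 of 1.64. Adjusted p-values with the block were 0.117, 0.146, 0.129, 0.0707, 0.275 and 0.0749 for these. Without stiff IPN replicate 2 and with the block, the changes were 0.82 for IFIT1, 1.45 for MX1, 0.54 for IFI6, 0.86 for IFI44, -0.02 for RSAD2 and 1.55 for OAS2.

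These calls rest on a small number of libraries. Without stiff IPN replicate 2, the library in which members stood highest, 9 members were called with the block (8.17% of all genes), all 9 higher and 8 of them among the 10, all but IFIT2 and OAS1. Changes without that library were 2.58 for IFI27, 1.59 for ISG15, 1.56 for DDX58 and 1.61 for SAMD9 on the log2 scale. Without stiff IPN replicate 1 there were 25 calls, 24 higher, while calls over all genes rose as well, to 20.1%. Without soft IPN replicate 1 there was 1 call, DDX58 (1.8% of all genes), and without soft IPN replicate 2 there were 0 (limma with the block; 0% of all genes were called in that fit as well). Leaving out soft col:rBM replicate 2 gave 6 calls (2.43% of all genes) and leaving out stiff col replicate 2 gave 5 (1.90%). In a fit to the 4 IPN libraries alone, again with pairing, 5 members were called (2.33% of all genes).

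**Figure D4:**
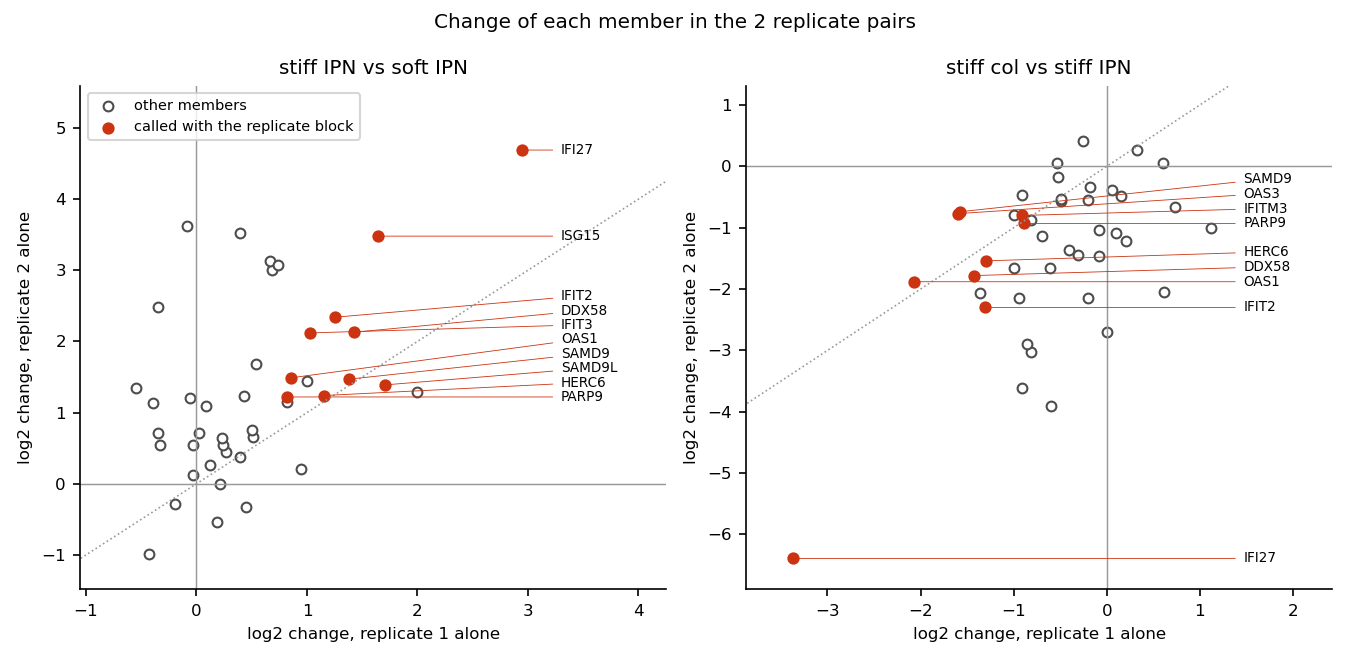
Log2 change of each of the 43 members in replicate 1 alone (horizontal) and in replicate 2 alone (vertical), for stiff IPN against soft IPN (left) and stiff col against stiff IPN (right), with members called with the replicate block in red and the dotted line marking equal changes. IFI27 lies at 2.95 and 4.69 on the left and at -3.37 and -6.39 on the right, and most members lie farther from 0 in replicate 2 than in replicate 1.

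Stiff col against stiff IPN compares stiff gels with col-1 and without it, and shares the stiff IPN libraries with the comparison above. Members were lower in stiff col gels, with a median log2 change of -0.88 against 0.00 over all genes, and 38 of 43 had a negative change. That median was -0.56 without stiff IPN replicate 2 and -0.53 in replicate 1 alone. With the block and without stiff IPN replicate 2, 34 members were negative. Both stiff col libraries were below both stiff IPN libraries for 25 of 43 members, where 15.8% of all genes were below, and above for 1, LGALS3BP, where 15.1% were above. Without the block limma called 0 members and 0% of all genes. At an unadjusted p under 0.05 there were 17 members, all lower, beside 6.27% of all genes. With the block 9 of 43 were called, all 9 lower, beside 2.47% of all genes (1.0% higher and 1.47% lower).

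IFI27 fell by 4.88 ± 0.66 (SE) on the log2 scale, which makes it 29.5-fold lower in stiff col gels (adjusted p = 0.0145 with the block and 0.225 without). Its change was -3.64 with the block when stiff IPN replicate 2 was left out. OAS1 fell by 1.97 ± 0.26, or 3.92-fold (0.0134 with and 0.353 without). The others were IFIT2 (3.49-fold lower, adjusted p = 0.0472), DDX58 (3.05-fold, 0.0197), HERC6 (2.67-fold, 0.0235), OAS3 (2.27-fold, 0.0391), SAMD9 (2.24-fold, 0.0437), PARP9 (1.88-fold, 0.0463) and IFITM3 (1.81-fold, 0.0232), each lower in both replicate pairs. Of the 12 members called in either comparison, 7 were called in both: DDX58, HERC6, IFI27, IFIT2, OAS1, PARP9 and SAMD9. Both comparisons use the same stiff IPN libraries, so a call in both is not a separate result. The share of all genes called in both is not given here. Changes that did not pass were -2.27 for RSAD2, -2.25 for IFI6, -1.92 for IFIT1, -1.88 for ISG15 (adjusted p with the block 0.0923), -1.71 for OAS2, -1.55 for MX1, -1.35 for IFITM1, -1.33 for CMPK2, -1.17 for IFI44, -1.13 for IFIH1, -0.92 for IRF1, -0.77 for IRF9 and -0.71 for IRF7. Without stiff IPN replicate 2 and with the block, these were -0.48 for RSAD2, -0.89 for IFI6, -0.78 for IFIT1, -0.9 for ISG15, -1.62 for OAS2, -1.08 for MX1, 0.01 for IFITM1, -1.47 for CMPK2, -0.2 for IFI44, -0.56 for IFIH1, -0.64 for IRF1, -0.25 for IRF9 and 0.57 for IRF7.

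The count of members called in this comparison also depended on the libraries, and calls over all genes moved with it. Leaving out stiff IPN replicate 1 gave 25 calls (16.6% of all genes), stiff col replicate 1 gave 1 (0.269%) and stiff col replicate 2 gave 2 (0.651%). Leaving out soft IPN replicate 1 or soft IPN replicate 2 gave 2 each (0.808% and 0.823%). Without stiff IPN replicate 2 there were 8 (5.42%), 7 of them among the 9, all but IFIT2 and PARP9. The fit to the 4 libraries of these gels gave 3 (1.95%).

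In the collagen gels, where the stiffer gel also has more col-1 and no rBM, no member passed the test. The median log2 change of stiff col against soft col:rBM was 0.18 over members and 0.00 over all genes, and 31 of 43 members had a positive change. Over members it was 0.11 without stiff col replicate 1, 0.26 without soft col:rBM replicate 2, 0.26 in replicate 1 alone and 0.08 in replicate 2 alone. Both stiff col libraries were above both soft col:rBM libraries for 6 members (IFIT3, SAMD9L, IFITM2, IFITM3, ISG15 and IFI44L), where 9.51% of all genes were, and below for 2 (IFI27 and HERC5), where 9.50% were. limma called 0 members with the block and 0 without, beside 0% of all genes in both fits. At an unadjusted p under 0.05 there were 0 members without the block and 1 with it, beside 1.05% and 3.72% of all genes. In a paired fit to these 4 libraries alone, 6 members were called, 5 higher (1 lower), beside 7.07% of all genes.

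Soft col:rBM against soft IPN compares the soft gels, and shares its libraries with the comparisons within each gel system. The median log2 change was -0.15 over members (-0.27 without soft IPN replicate 2) and 0.00 over all genes. Both soft col:rBM libraries were below both soft IPN libraries for 10 members, where 10.4% of all genes were, and above for 2, SAMD9 and PARP9, where 10.3% were. limma called 0 members without the block (0% of all genes). With the block it called 0, beside 0.0224% of all genes. At an unadjusted p under 0.05 there were 2 members without the block (1.42% of all genes) and 4 with it (4.76%). The 2 members at an unadjusted p under 0.05 without the block were IFITM2, with a log2 change of -1.24 ± 0.21 (SE), and IFITM3, with -1.02 ± 0.19. Both were called with the block when either stiff IPN library was left out (0.157% of all genes each time), and 2 members were called in the paired fit to the 4 soft gel libraries (0.337%).

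**Figure D5:**
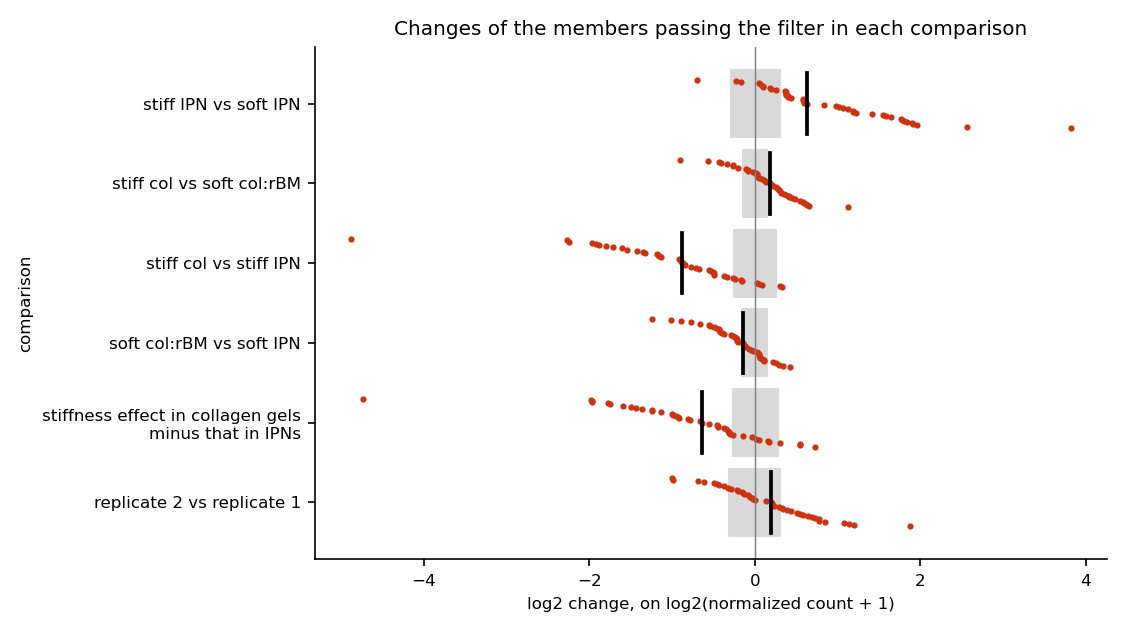
Log2 change of each of the 43 members (red points, sorted) in each comparison, with the members' median as a black bar and the interquartile range of all 13369 genes in grey. Medians lie at 0.63 for stiff IPN against soft IPN and at -0.88 for stiff col against stiff IPN, and at 0.18 and -0.15 for the other gel comparisons. The grey bands show the spread of single genes, not that of a median over 43 genes.

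Whether stiffness acted differently in the 2 gel systems was tested by subtracting the change of stiff against soft IPNs from the change of stiff col against soft col:rBM. The median over members was -0.64, against 0.01 over all genes, and 35 of 43 were negative (30 without stiff IPN replicate 2 and with the block). It was -0.36 without stiff IPN replicate 2, -1.03 without stiff IPN replicate 1, -0.16 in replicate 1 alone and -1.04 in replicate 2 alone. limma called 0 members and 0% of genes without the block. With the block it called 0 members and 0.0150% of all genes. At an unadjusted p under 0.05 there were 6 members without the block, beside 2.08% of all genes, and 12 with it, beside 9.88%. Thus calls in IPNs without calls in collagen gels do not show that the stiffness effects differed. Leaving out stiff IPN replicate 1 gave 11 calls with the block, all lower (5.05% of all genes), and leaving out stiff IPN replicate 2 gave 1, OAS3 (0.307%).

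Between replicate numbers, which come from the library labels, members were called about as often as all genes. The study names 2 independent trials but does not tie these numbers to them. With gel and replicate in the fit, 12 of 43 members were called between replicate 2 and replicate 1, 8 higher (4 lower), where 27.1% of all genes were called (12.7% higher and 14.4% lower). The median log2 change was 0.19 over members and -0.01 over all genes. Without either stiff IPN library it was -0.04 over members, and without either soft IPN library 0.12, so its sign rests on the stiff IPN pair. OAS3 rose by 1.08 ± 0.16 (SE) in replicate 2 (adjusted p = 0.00466), and its values above show replicate 2 higher in all 4 gels. CMPK2 (1.87), OAS2 (1.14), HERC6 (0.85), IFI35 (0.78), DDX58 (0.69), OAS1 (0.64) and IRF1 (0.54) were also higher, and ISG20 (-1.0), OASL (-0.99), DDX60 (-0.69) and UBE2L6 (-0.50) lower. Leaving out single libraries moved this count to 5 without soft IPN replicate 1 or 2 (11.6% of members, beside 12% and 12.2% of all genes) and to 20 without stiff IPN replicate 1 or 2 (46.5%, beside 43.7% and 43.6%). It was 2 without soft col:rBM replicate 1, soft col:rBM replicate 2 or stiff col replicate 2 (4.65%, beside 9.18%, 9.07% and 9.13%), and 3 without stiff col replicate 1 (6.98%, beside 9.07%). Of the 10 members called in stiff IPN against soft IPN, DDX58, HERC6 and OAS1 were thus also called between replicates.

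Interferon genes themselves were read at a few counts or not at all. Of 10 ligands, 1 passed the filter: IFNE, the epithelial interferon epsilon, with 3 and 2 normalized counts in the soft IPNs, 9 and 14 in the stiff IPNs, 10 and 7 in soft col:rBM gels and 10 and 11 in stiff col gels. Its soft IPN libraries were the lowest, and limma called it in 0 comparisons, though it had an unadjusted p under 0.05 in stiff IPN against soft IPN (log2 change 1.82) and in soft col:rBM against soft IPN (1.44), with the block and without. IFNB1, IFNA2 and the lambda interferon IL29 were at 0 in all libraries except stiff IPN replicate 2, where they had 2, 1 and 2, under the floor of 3.3 for that library. IFNK and IL28B reached at most 1, and IFNA1, IFNW1, IFNG and IL28A were at 0 in all 8 libraries.

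All 10 receptor and JAK-STAT genes passed, and summed to 12407 and 11114 normalized counts in the soft IPNs, 12662 and 11185 in the stiff IPNs, 12213 and 10380 in soft col:rBM gels and 13675 and 11403 in stiff col gels. IFNAR1 was between 903 and 1201, IFNAR2 between 237 and 334, and IFNGR2 had the highest level per kilobase (1050 per kb). limma called 0 of the 10 in any gel comparison, with the block or without. In stiff IPN against soft IPN 1 had an unadjusted p under 0.05 without the block and 3 with it (2 higher, 1 lower). Over all genes these shares were 9.31% without the block and 24.7% with it. Between replicates 4 of the list were called lower in replicate 2, beside 14.4% of all genes, among them JAK1, which fell by 0.57.

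Of 16 genes of sensing and induction, 15 passed. With the block IRF5, a factor that induces interferon and cytokine genes, was called lower in stiff col against stiff IPN, with a log2 change of -1.25 ± 0.25 (SE; adjusted p = 0.0451 with the block and 0.353 without) and a lower value in both replicate pairs. IRF5 had 216 and 186 in the soft IPNs, 276 and 391 in the stiff IPNs, 186 and 156 in soft col:rBM gels and 119 and 158 in stiff col gels, highest in stiff IPNs. limma called 0 of 15 in the other gel comparisons. In stiff IPN against soft IPN with the block, 4 had an unadjusted p under 0.05, where 24.7% of all genes did. Between replicates 3 were called, all higher, IKBKE (1.48) and TRAF3 (0.45) among them, beside 12.7% of all genes higher.

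Negative regulators, 10 of 10 passing, had 0 calls in the gel comparisons by limma. With the block 2 had an unadjusted p under 0.05 in stiff IPN against soft IPN, where 24.7% of all genes did. Between replicates 3 were called (1 higher, 2 lower), beside 27.1% of all genes, SOCS3 with -1.47 and TRIM21 with 0.42. A further list of 36 interferon-stimulated genes had 31 passing the filter. Their median log2 change in stiff IPN against soft IPN was 0.33, against -0.01 over all genes. With the block 2 of these 31 were called there, both higher, beside 3.82% of all genes (1.69% higher). They were GBP1 with 1.47 (adjusted p = 0.0386 with the block and 0.493 without) and GBP3 with 1.31 (0.0236 and 0.410), guanylate-binding proteins that attack membranes around intracellular pathogens. In stiff col against stiff IPN 0 of the 31 were called with the block, beside 2.47% of all genes. GBP1 had 137 and 141 in the soft IPNs, 246 and 606 in the stiff IPNs, 112 and 174 in soft col:rBM gels and 170 and 231 in stiff col gels. GBP3 had 157 and 149, 367 and 396, 206 and 217, and 235 and 304. Both were highest in stiff IPNs. Between replicates 9 of this list were called (7 higher, 2 lower), beside 27.1% of all genes, with 1.58 for NLRC5 and -2.11 for APOBEC3G.

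Markers were read to check the cells. Of 9 basal and mammary epithelial markers 9 passed, with sums of 86909 and 122105 normalized counts in the soft IPNs, 73730 and 146375 in the stiff IPNs, 95219 and 87179 in soft col:rBM gels and 57553 and 68206 in stiff col gels. KRT5 had the highest level per kilobase (5960 per kb). Stiff IPN replicate 2 had the highest sum, of which KRT17 made 71907. KRT17, a keratin of basal and stressed epithelium, had 5552 and 18767 in the soft IPNs, 19555 and 71907 in the stiff IPNs, 2883 and 7944 in soft col:rBM gels and 3049 and 13097 in stiff col gels. With the block 3 of the list were called in stiff IPN against soft IPN (KRT17 1.88, CDH1 0.91, ITGB4 -1.45), beside 3.82% of all genes. Called in stiff col against stiff IPN were 4 (KRT17 -2.57, EPCAM -1.71, CDH1 -1.63, KRT14 -1.52), beside 2.47% of all genes. Their part in the result was not tested.

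Markers of other cell types were read as well. Of 8 leukocyte markers 4 passed, with PTPRC at 0 in all libraries and CD3E at no more than 1. Together these genes had 5094 and 2667 in the soft IPNs, 1812 and 756 in the stiff IPNs, 5827 and 1826 in soft col:rBM gels and 4890 and 1373 in stiff col gels, with CD68 (1130 per kb), a lysosomal protein also made outside leukocytes, the most abundant. These sums were lower in replicate 2 than in replicate 1 of all 4 gels, and lowest in stiff IPN replicate 2. Between replicates 2 of the 4 genes were called, both lower, CD68 (-1.74) and CD14 (-1.17). With the block CD68 (-2.24) and CSF1R (-1.31) were called lower in stiff IPN against soft IPN, and CD68 higher (1.72) in stiff col against stiff IPN. Of 5 markers of plasmacytoid dendritic cells, the main producers of type I interferon, 0 passed: IL3RA and LILRA4 were at 0 in all libraries, and TLR7 had the highest level, between 1 and 10 normalized counts. The list summed to 3 and 2, 5 and 11, 1 and 4, and 2 and 6.

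Fibroblast markers passed for 2 of 5, DCN (68.2 per kb) being the most abundant, with LUM between 0 and 1 and sums of 1371 and 998, 1067 and 1100, 958 and 775, and 1468 and 1308 in the same order of gels. Endothelial markers passed for 2 of 4, KDR (17.1 per kb) being the most abundant, with CDH5 at 0 in all libraries except stiff IPN replicate 2 (7) and sums of 263 and 73, 74 and 39, 270 and 44, and 172 and 55. KDR fell by 2.20 on the log2 scale in replicate 2, so the endothelial sums followed replicate. Without the block limma called 0 genes of any of these lists in a gel comparison, and the 2 fibroblast and 2 endothelial genes tested had 0 calls with it as well. Their part in the result was not tested.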

How the data were processed

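Gene expression was measured by RNA-seq in 8 libraries of MCF10A cells, 2 for each of 4 gels. The deposited values are a signal per gene: the authors counted reads per gene and divided them by a factor per library, and the values are rounded to whole numbers, so whole reads cannot be recovered. Per the submitters' processing notes, reads were trimmed with Trim Galore 0.3.3, aligned to hg19 with TopHat2 2.0.13 (the study's methods name Bowtie2), filtered with SAMtools 1.1 and counted with HTSeq, with DESeq2 under R 3.2.0. Strand setting and gene annotation were not stated. Totals were 14306848 to 17999273 normalized counts per library.

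Genes with 10 or more in at least 2 libraries were kept, 1 was added and log2 taken. limma 3.58.1 (R 4.3.3, statmod 1.5.0) was fitted to all 8 libraries with 1 mean per gel, mean-variance trend and robust moderation, two-sided, with Benjamini-Hochberg adjustment over the 13369 genes tested and calls at an adjusted p under 0.05. The fit was tested on simulated data, and the outcome is not given here. Replicate numbers paired the libraries (correlations of replicate differences 0.278 to 0.819), so each fit was repeated with replicate number as a block. Alternatives were pseudocounts of 0.5 and 5, no filter, a filter of 4 libraries, median-of-ratios and upper-quartile rescaling, fits to the 4 libraries compared, no trend or robust moderation, and leaving out each library. Leaving out libraries with the block, and paired fits to 4 libraries, were chosen after seeing the data.

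Members and lists were chosen with earlier results of these data known. Named were the up to 3 members of each role group with the largest change in any gel comparison, every called member by its test (of those called with the block, the 6 largest in each direction and the rest by their fold), members that did not pass the filter and, in other lists, the 2 largest called changes. Other members are given by their values, and those singled out, such as IFITM2 and LGALS3BP, were chosen after their values were seen. Positions and exon lengths came from the GENCODE annotation of hg19, promoter windows from RefSeq (GRCh38.p14). Tables and figures used Python 3.11.15, pandas 2.3.3, numpy 2.4.6 and matplotlib 3.10.9. Gene sets were not tested. Results of some genes in the other lists are not reported here.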

Additional observations from a re-analysis of the deposited data

Results flagged for a closer look

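In 2 of 43 members, and in 1.77% of all genes tested, both stiff libraries lay beyond both soft libraries in each gel system and in opposite directions. Compared only within replicate pairs, opposite directions were found in 8 members (OAS1, OAS3, ISG20, IFI27, UBE2L6, HERC5, PARP9 and IRF9) and in 11.3% of all genes. IFI27 was higher in stiff than in soft IPNs (123 and 671 against 15 and 25 normalized counts) and lower in stiff col gels than in their soft col:rBM counterparts (11 and 7 against 19 and 16), a difference of effects of -4.74 on the log2 scale. With the block and without stiff IPN replicate 2, that difference was -3.5. HERC5 was higher in stiff than in soft IPNs (19 and 18 against 13 and 11) and lower in stiff col gels than in their soft col:rBM counterparts (9 and 10 against 14 and 12), a difference of -1.0. The test of the difference by limma did not pass for either, with adjusted p = 0.180 for IFI27 and adjusted p = 0.622 for HERC5 with the replicate block, and 1.0 for both without it. HERC5 lies near the filter value of 10 in all gels.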

How the results depend on the processing

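Without the replicate block, limma called 0 members in each gel comparison under every alternative. Adjusted p-values ranged from 0.13 to 1.0 over these settings for the members followed, which left out SAMD9, IFITM2 and IFITM3. Counts moved with the replicate block, to 10 in stiff IPN against soft IPN and to 9 in stiff col against stiff IPN. With the block kept, leaving out 1 library at a time gave 0 to 25 and 1 to 25 in these comparisons, 0 to 2 in soft col:rBM against soft IPN and 0 to 11 for the difference of stiffness effects, where a lone library is assumed to vary like the other groups. Paired fits to the 4 libraries compared gave 5, 3, 2 and, in stiff col against soft col:rBM, 6. Calls between replicates ranged from 2 to 20 on leaving out a library. The members' median in stiff IPN against soft IPN was 1.21 in replicate 2 alone. In soft col:rBM against soft IPN it was -0.21 in replicate 1 alone, and -0.27 to -0.12 on leaving out a library. The median between replicates was -0.17 in soft IPNs alone and 0.55 in stiff IPNs alone. In fits without the block, directions turned for IRF7 in stiff col against stiff IPN (0.02 without stiff IPN replicate 2, -1.44 to 0.02 over all libraries left out), for IFI35 in stiff IPN against soft IPN (-0.10 without soft IPN replicate 1 and -0.09 without stiff IPN replicate 2, -0.10 to 0.87 over all; 0.39 and 0.38 within the replicate pairs, so it did not turn with pairing) and for OASL between replicates (0.14 in stiff IPNs alone). With the block and without stiff IPN replicate 2, 6 members turned in stiff col against stiff IPN (EIF2AK2, IFI44L, IFITM1 at 0.01, IRF7 at 0.57, PLSCR1 and USP18), and in stiff IPN against soft IPN 10 members turned, RSAD2 (-0.02), IRF7 (-0.88) and STAT2 (-0.47) among them, while IFI35 was 0.27. The cause was not tested. With 2 libraries per gel and about 13100000 counted reads in the shallowest, values of a few reads, as for MX2, EPSTI1 and the interferons other than IFNE, cannot show a difference.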
